A study of Mus musculus with 6 samples.

Results

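The miR-10 and miR-196 hairpins are microRNA (miRNA) genes that lie among the Hox genes, and their reads were followed here in the heart of the adult mouse. They were chosen by name, as the sense entries of Mir10a, Mir10b, Mir196a-1, Mir196a-2 and Mir196b, with both arms of each hairpin. Of these 5 hairpins 4 had an entry, with 7 mature arms among the 1026 sense entries of the count files. Mir196a-2 and the 3p arm of Mir196a-1 had no entry and count as no read. The animals were male mice of the C57BL/6J strain, wild type and 18 weeks old, and the labels name no treatment. There are 6 small RNA libraries, called hearts 1 to 6 by the number in the title. The labels do not state that each came from a separate animal, so the spread between them may be technical. C57BL/6J is an inbred laboratory strain, and all hearts form 1 group, with no other genotype to set it against. The labels call the tissue whole heart, while the extraction protocol describes the apex of the ventricles, so the part sampled is uncertain. Nothing in the labels gives a batch or says that mice were pooled.

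Hox genes encode transcription factors that set position along the body axis. They stand in 4 clusters, and genes of the same group number in different clusters are descended from 1 ancestral gene. Low group numbers lie at the end of a cluster that is used further forward in the embryo, and high group numbers at the end used toward the tail. The miRNAs of these clusters are cut from hairpins in transcripts of the same strand, and Hox messenger RNAs are among their known targets, with Hoxb8 cleaved under the guidance of miR-196 as the classic mouse example. A hairpin yields a 5p and a 3p arm. Usually 1 arm is loaded into Argonaute and kept, and its bases 2 to 8, the seed, choose the targets.

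The mature sequences show which members can be told apart by a read. They are those of RefSeq on GRCm38.p6, with the seed in capitals, and all 10 arms were found there.
miR-10a-5p: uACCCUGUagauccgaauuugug
miR-10b-5p: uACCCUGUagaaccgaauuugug
miR-10a-3p: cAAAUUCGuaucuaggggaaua
miR-10b-3p: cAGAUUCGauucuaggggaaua
miR-196a-5p: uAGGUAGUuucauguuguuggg
miR-196b-5p: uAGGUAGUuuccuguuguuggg
miR-196b-3p: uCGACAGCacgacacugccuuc
Counted from 1 at the 5′ end, miR-10a-5p and miR-10b-5p differ by U12A alone, and miR-196a-5p and miR-196b-5p by A12C alone. Within each family the seed of the 5p arm is therefore shared, ACCCUGU for miR-10 and AGGUAGU for miR-196. No other mature mouse miRNA in the RefSeq table has either seed. The 3p arms of miR-10 differ by A3G, U9A and A10U and have different seeds. miR-196a-5p is the same sequence at Mir196a-1 and Mir196a-2, so a read of it cannot be placed at a locus. With a single base between the 5p arms of miR-10a and miR-10b, a sequencing error at that base could move a read between them, and how the authors treated mismatches is not given in the sources used here.

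The precursors of the abundant pair differ more than their 5p arms do. They are shown whole, with the mature arms in capitals.
Mir10a: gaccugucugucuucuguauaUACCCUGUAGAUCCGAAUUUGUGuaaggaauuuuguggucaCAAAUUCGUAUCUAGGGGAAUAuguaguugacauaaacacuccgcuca
Mir10b: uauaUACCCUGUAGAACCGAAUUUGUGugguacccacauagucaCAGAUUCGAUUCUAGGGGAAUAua
In the fold predicted with RNAfold, base 12 of the 5p arm pairs with base 10 of the 3p arm in both hairpins. U12A in the 5p arm and A10U in the 3p arm thus fall on the same base pair, which is U with A in Mir10a and A with U in Mir10b. Base 13 of the 5p arm is unpaired in both, and it faces the third difference, U9A. A3G turns the pair with base 19 of the 5p arm from A with U into G with U. In each of the folds, 20 of the 23 bases of the 5p arm were paired. These are predictions from sequence and not measurements.

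The hairpins lie at 2 places in the clusters. On GRCm38, Mir10a is on chromosome 11 at chr11:96317165-96317274 on the plus strand, between the coding regions of Hoxb5 and Hoxb4. It lies 1495 bases before the coding region of Hoxb4 and in no other annotated gene (GENCODE M21). Mir10b is at chr2:74726070-74726137 on the plus strand, between Hoxd8 and Hoxd4, 1141 bases before the coding region of Hoxd4, in introns of Hoxd3 and Hoxd4 transcripts. Both miR-10 hairpins thus stand just before a group 4 gene. Mir196b is at chr6:52230081-52230165 on the minus strand, between Hoxa10 and Hoxa9, 3976 bases before the coding region of Hoxa9 and in an exon of a Hoxa9 transcript. Mir196a-2 is at chr15:102973350-102973434 on the plus strand, between Hoxc10 and Hoxc9, 8218 bases before the coding region of Hoxc9 and in an intron of a Hoxc5 transcript. Mir196a-1 is at chr11:96265164-96265265 on the plus strand, 6276 bases before the coding region of Hoxb9 and in no other annotated gene. The 3 miR-196 hairpins thus stand before a group 9 gene, and every member lies on the strand of its Hox genes.

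**Figure D1:**
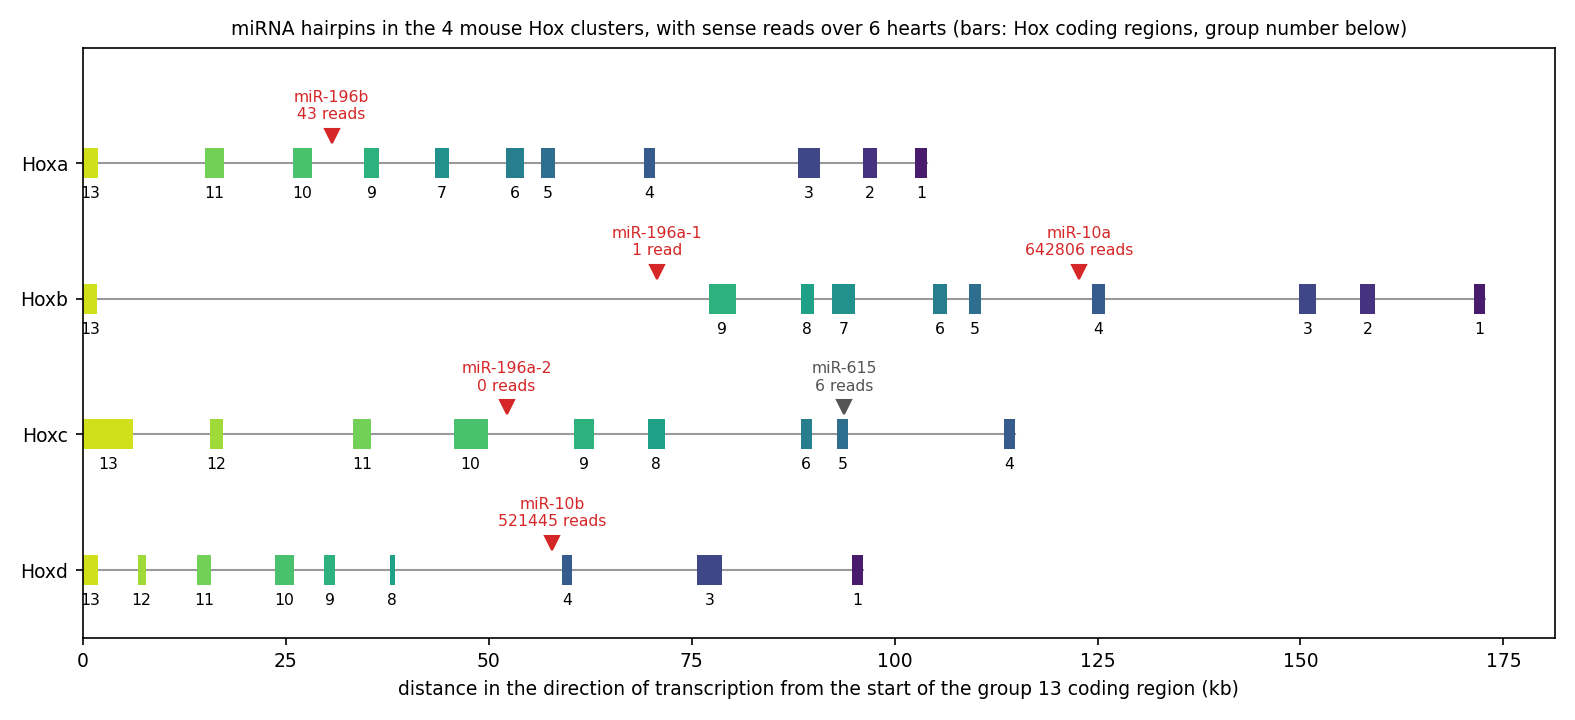
The 4 mouse Hox clusters to scale, from the group 13 gene on the left to the low group numbers on the right (horizontal axis, kb from the start of the group 13 coding region); bars are coding regions, triangles miRNA hairpins, with their sense reads over 6 hearts. Mir10a and Mir10b, before group 4, have 642806 and 521445 reads, while the miR-196 hairpins, before group 9, have 43, 1 and 0.

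Reads came almost wholly from the miR-10 hairpins before group 4. Mir10a had 642806 sense reads over the 6 hearts and Mir10b 521445, against 43 for Mir196b. Mir196a-1 was listed with 1 read, and Mir196a-2, without an entry, counts as 0. Their 5p arms are identical, so that read could come from either locus. The 5p arms of miR-10a and miR-10b together held 3.97% ± 0.460 of all counts (SD, n = 6), between 3.49% and 4.61% in single hearts. They had 27712 reads for each read of miR-196b-5p (exact binomial 95% interval 20501 to 38451). A further pair of hairpins are annotated between the outermost Hox genes. Mir615, in an intron of Hoxc5, had 6 reads of its 3p arm in 4 hearts, and Gm44463, on the opposite strand between Hoxd9 and Hoxd8, had no entry. Mir615 is also followed by a group 4 gene, with 19721 bases from it to the coding region of Hoxc4. Whether position or distance bears on the number of reads was not tested. Mir615 stood at 0.203 CPM (exact Poisson 95% interval 0.0746 to 0.442), where CPM is the count of an arm scaled to a library of 1000000 counts. Adapter ligation favours some RNA ends, so ratios between different miRNAs are ratios of reads and not of molecules, and in whole tissue fewer cells of a type and less RNA per cell cannot be told apart.

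miR-10a-5p was the tenth most abundant of 971 mature miRNAs. It stood at 24703, 19003, 22734, 24466, 20078 and 20843 CPM in hearts 1 to 6, a mean of 21971 ± 2364 CPM. Hearts 1 and 4 were the highest and heart 2 the lowest, 1.30-fold apart. Its neighbours in the order were miR-378a-3p at 30710 ± 3604 CPM, and miR-30d-5p at 20888 ± 1983 CPM. miR-10a-5p was below miR-378a-3p in each of 6 hearts (exact permutation test with sign flips within hearts, two-sided, p = 0.0313), and above miR-30d-5p in 5 of 6 (exact p = 0.281). The smallest p that 6 hearts allow in this test is 0.0313. Of such tests 10 were made in all, and their p-values are not adjusted. The neighbours of miR-10a-5p here and of miR-10b-5p below were picked by mean CPM in these same hearts. Their p-values are not independent of that choice and describe only how steadily the order held.

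miR-10b-5p was the thirteenth. Its levels in hearts 1 to 6 were 21422, 15931, 14726, 20392, 17399 and 16527 CPM, a mean of 17733 ± 2628 CPM. Hearts 1 and 4 were again the highest, but here heart 3 was the lowest, 1.45-fold below heart 1. miR-30e-5p above it, at 20472 ± 1807 CPM, was higher in 5 of 6 hearts (exact p = 0.0625), and miR-191-5p below it, at 17186 ± 738 CPM, was lower in 4 of 6 (exact p = 0.688). The rank of miR-10b-5p among these is therefore not settled by the hearts.

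The passenger arms were low. miR-10a-3p had 40, 48, 25, 45, 56 and 64 reads in hearts 1 to 6, or 9.35 ± 2.05 CPM. miR-10b-3p had 10, 12, 7, 14, 20 and 15 reads, or 2.62 ± 0.718 CPM. Heart 3 was the lowest for both, and each arm had reads in all hearts. The files count miR-10b-3p over a window that starts and ends 1 base before the RefSeq arm, and miR-10b-5p over 22 of the 23 RefSeq bases, while the windows of miR-10a match RefSeq. The effect of these windows on the counts was not tested.

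miR-196b was the only member of its family with reads in every heart. miR-196b-5p had 13, 6, 7, 5, 4 and 7 reads in hearts 1 to 6, or 1.46 ± 0.697 CPM, and 42 reads in all (exact Poisson 95% interval 30.3 to 56.8). Heart 1 was the highest and heart 5 the lowest. With a mean of 7 reads it was too low for the tests across all miRNAs. It did not differ from miR-10b-3p beyond the spread between hearts, with miR-10b-3p higher in 4 of 6 (1.83-fold, exact permutation test, p = 0.125). miR-196b-3p had 1 read, in heart 1. At this depth, 3 counts over the 6 libraries correspond to 0.102 CPM.

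miR-196a-5p had 1 read, in heart 4, or 0.0339 CPM over all libraries (exact Poisson 95% interval 0.000857 to 0.189). No test was made between the miR-196 members, since miR-196a-5p had fewer than 10 reads. miR-196b-5p had 42 reads per read of miR-196a-5p, with an exact binomial 95% interval of 7.14 to 1698. Heart 4 also held 10 of 10 reads of miR-216a-5p, 5 of 6 of miR-216b-5p, 8 of 11 of miR-217-5p and 19 of 25 of miR-124-3p, which are known from exocrine pancreas and from nerve cells, and the part of such reads in the single miR-196a read was not tested. As a scale for these levels, 46.1% of the mature miRNAs had 10 or fewer reads over all libraries.

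**Figure D2:**
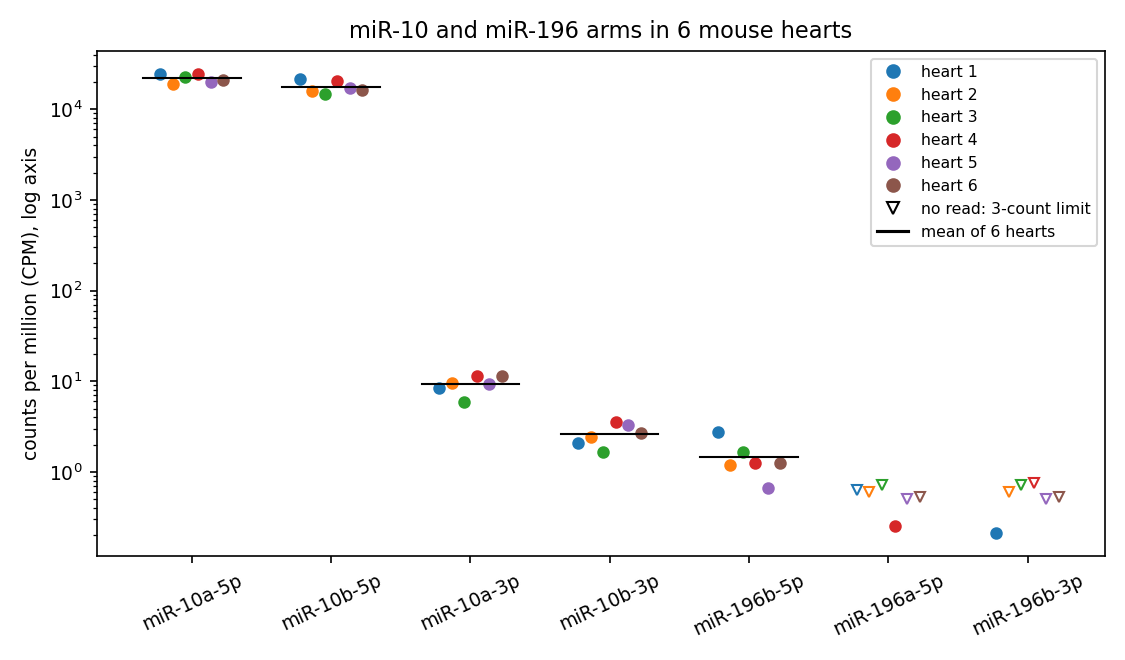
CPM (log axis) of each miR-10 and miR-196 arm with an entry; points are the 6 hearts, horizontal lines their mean, and open triangles mark the 3-count limit of a heart without a read. The 5p arms of miR-10 lie between 14726 and 24703 CPM, their 3p arms and miR-196b-5p between 0.666 and 11.4 CPM, and miR-196a-5p and miR-196b-3p have a read in 1 heart each.

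In the reads as counted, with unlike count windows, miR-10a and miR-10b differed in both arms, by a small step in the 5p and a larger one in the 3p. The reads of miR-10a-5p per read of miR-10b-5p were 1.15, 1.19, 1.54, 1.2, 1.15 and 1.26 in hearts 1 to 6. The ratio was above 1 in each heart, with a mean of 1.24-fold (log2 ratio 0.32 ± 0.16, SD, n = 6, exact permutation test, two-sided, p = 0.0313). Heart 3 stood apart, and without it the mean log2 ratio was 0.25. The ratio of miR-10a-3p to miR-10b-3p ran from 2.76 in heart 5 to 4.16 in heart 6, with 0.5 added to each count, and its mean was 3.5-fold (log2 ratio 1.81 ± 0.22, exact p = 0.0313). With hearts left out the exact test cannot pass 0.05, since 5 hearts allow no p under 0.0625.

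**Figure D3:**
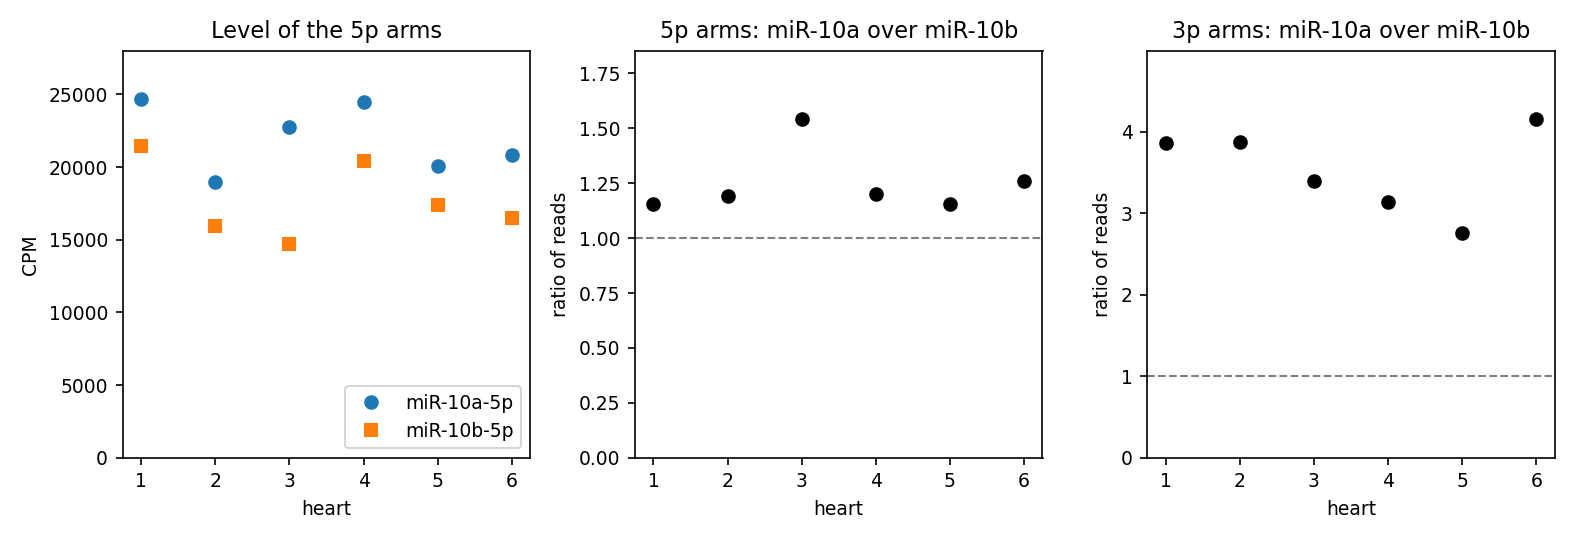
Left, CPM of miR-10a-5p (circles) and miR-10b-5p (squares) in each heart; middle and right, the ratio of miR-10a to miR-10b reads for the 5p and the 3p arms, with a dashed line at equal reads. The 5p ratio lies between 1.15 and 1.26 in 5 hearts and at 1.54 in heart 3, while the 3p ratio runs from 2.76 to 4.16.

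Both miR-10 hairpins gave reads almost wholly from the 5p arm. Mir10a had 642528 reads of 5p and 278 of 3p, or 2311 reads of 5p per read of 3p (exact binomial 95% interval 2055 to 2609). Mir10b had 521367 reads of 5p and 78 of 3p, a ratio of 6684 (5356 to 8456). All hairpins with both arms listed and 10 or more reads on average entered a single edgeR quasi-likelihood fit that blocks on the library. A hairpin was called when its arms differed 2-fold or more with an adjusted p below 0.05. Of 213 hairpins tested, 48.4% were called with more 5p and 40.8% with more 3p. Mir10a and Mir10b were both called with more 5p, with log2 ratios of 11.19 ± 0.14 and 12.70 ± 0.16, and the 5p arm was higher in 6 of 6 hearts for each. The ± is an approximate SE, the log2 ratio divided by the square root of the test's F. It may understate the error where 3p reads are few. For both hairpins the adjusted p was too small for the computer to store. The adjusted p rests on a spread that edgeR shares among hairpins, and in a test of the 6 ratios alone the exact p was 0.0313 for each. Among the 103 hairpins called with more 5p, the median fitted ratio was 38.8-fold, so most of those called had a smaller excess than either.

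As counted, the excess of 5p reads was larger in Mir10b than in Mir10a. The count windows of Mir10b depart from RefSeq by 1 base and those of Mir10a do not, and their effect on this difference was not tested. Within hearts, the log2 arm ratio of Mir10a minus that of Mir10b was -1.49 ± 0.26 (SD, n = 6), and it was below 0 in 6 of 6 hearts (exact permutation test, two-sided, p = 0.0313). This value is the log2 ratio of miR-10a to miR-10b in the 5p arms minus that in the 3p arms, both given above. It is therefore not independent of those tests. In terms of single hearts, with 0.5 added to each count, the ratio ran from 1811 to 3768 for Mir10a and from 5099 to 9715 for Mir10b, so the groups of values did not overlap. By fitted ratio Mir10b was the third of the hairpins tested and Mir10a the seventh. The hairpins next to Mir10b were Mir26a (10028 reads of 5p per read of 3p, interval 8367 to 12125), Mir149 (9113, 3118 to 44192), Mir451a (6082, 3798 to 10440) and Mir146a (5616, 2406 to 17296). Those next to Mir10a were Mir146a and Mir192 (3907, 2646 to 6037) above it, and Mir204 (2537, 991 to 9314) and Mir541 (2865, 514 to 113200) below. The interval of Mir10b overlaps all 4 of its neighbours' intervals, so its place among them is not fixed by the counts. That of Mir10a overlaps those of Mir146a, Mir204 and Mir541 and lies just below that of Mir192. These intervals pool the hearts and leave out the spread between them, so the separation from Mir192 holds for counting error only. The order here is by the fitted ratio, by which Mir204, at 2138, and Mir541, at 1635, stand below Mir10a although their ratios of summed reads are larger.

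Mir196b had 42 reads of 5p and 1 of 3p (ratio 42, exact binomial 95% interval 7.14 to 1698), too few to be tested with the others. The interval lies below that of Mir10a and of Mir10b, with counting error alone in each. The 5p arms of all members begin with U. The 3p arms of both miR-10 hairpins and of Mir196a-1 begin with C, while those of Mir196b and Mir196a-2 begin with U like their 5p arms. For 133 of the 190 called hairpins, both arms were found in RefSeq under the hairpin name without a locus number. Hairpins with an arm named otherwise were left out. Among the 133, the arm with more reads began with U in 53.4% and the other arm in 16.5%.

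**Figure D4:**
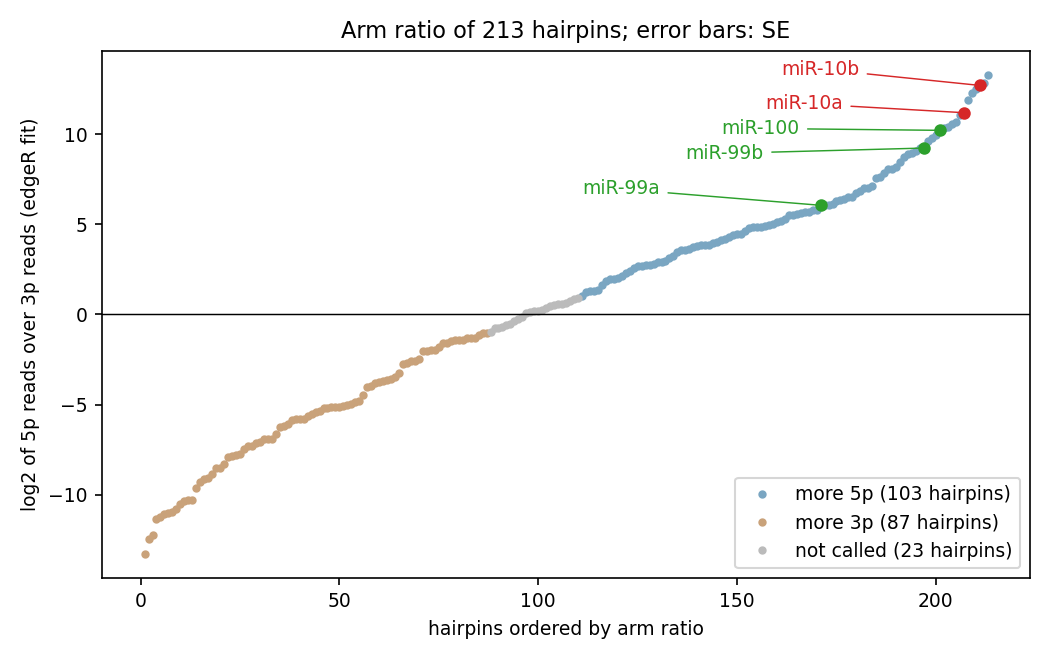
log2 of 5p over 3p reads (vertical axis, edgeR fit) for 213 hairpins in ascending order, coloured by call. Error bars, drawn only for the hairpins named here, are the approximate SE from the F of the test and mostly smaller than the points. Mir10b, at 12.70, and Mir10a, at 11.19, lie near the upper end, above Mir100, Mir99b and Mir99a.

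The closest relatives of miR-10 by sequence, miR-99 and miR-100, lie outside the Hox clusters and had fewer reads. Their 5p arms have a seed of their own, ACCCGUA, which the lines show in capitals.
miR-99a-5p: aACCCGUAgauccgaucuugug
miR-99b-5p: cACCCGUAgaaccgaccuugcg
miR-100-5p: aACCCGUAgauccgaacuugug
miR-99b-5p stood at 3867 ± 454 CPM, miR-99a-5p at 1102 ± 102 CPM and miR-100-5p at 934 ± 209 CPM. Every heart of each lay below the lowest heart of miR-10b-5p, at 14726 CPM. They were called with more 5p as well, and their 5p reads per 3p read numbered 606 for Mir99b (interval up to 703), 65.5 for Mir99a (59.9 to 71.7) and 1222 for Mir100 (815 to 1929). The interval of Mir100 lies just below that of Mir10a (2055 to 2609), with counting error alone in both.

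Between hearts, the 5p arms of miR-10 varied by more than counting allows, as most miRNAs tested did. The coefficient of variation (CV) of the CPM was 10.8% for miR-10a-5p and 14.8% for miR-10b-5p, where counting alone would give 0.306% and 0.339%. In a chi-square test of the 6 counts against the library totals, 72.0% of the 346 miRNAs that averaged 10 or more reads varied at an adjusted p under 0.05. miR-10a-5p and miR-10b-5p were among them, with an adjusted p too small to store. The biological coefficient of variation, the edgeR estimate of spread beyond counting error, was 12.3% for miR-10a-5p and 13.9% for miR-10b-5p. The common value over the miRNAs fitted was 18.9%. edgeR draws each estimate toward those of the other miRNAs, so it is not the spread of that miRNA alone and can exceed its CV. The difference from the common value was not tested. miR-10a-3p (CV 22%, counting 14.7%, adjusted p = 0.0964, chi-square test adjusted over 346 miRNAs) and miR-10b-3p (CV 27.4%, counting 27.7%, adjusted p = 0.524) were not called. With 25 to 64 and 7 to 20 reads per heart, this does not show that they were level. The spread includes library preparation, which 1 library per sample cannot set apart.

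miR-10a-5p and miR-10b-5p followed each other only loosely over the 6 hearts. On log2 CPM, r was 0.66 (exact permutation p = 0.176) and rho 0.60 (exact p = 0.242). When the pair lying farthest from the median of miR-10a-5p, hearts 1 and 2, was left out, r was 0.39. Heart 3 lay off the line of the others, and without heart 3 r was 0.96 (exact p = 0.025, 5 hearts). The 5p and 3p arms of 1 hairpin were no closer, with r = -0.18 for miR-10a (exact p = 0.778, rho -0.26, exact p = 0.658) and r = -0.06 without the same pair of hearts. For miR-10b r was 0.41 (exact p = 0.407, rho 0.43, exact p = 0.419), and 0.996 over the 4 hearts left without hearts 1 and 4. Of these 3 relations none passed 0.05, and the smallest p adjusted over them was 0.529.

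Over all 6 hearts, other miRNAs came closer to the pattern of each than its paralog did. Among 206 others with a mean of at least 100 reads, the 5 most like miR-10a-5p in log2 CPM over 6 hearts were let-7b-3p (r = 0.90), miR-21a-5p (0.85), miR-331-3p (0.81), miR-24-5p (0.78) and miR-101a-3p (0.76), and miR-10b-5p came at place 21. The 5 most like miR-10b-5p were miR-101a-3p (r = 0.91), miR-19a-3p (0.85), miR-450b-5p (0.80), miR-450a-5p (0.78) and miR-30a-5p (0.76), with miR-10a-5p at place 18. The median r over the 206 was 0.10 for miR-10a-5p and 0.12 for miR-10b-5p. All miRNAs compared come from the same 6 libraries and share each library's depth and scaling, and the values only describe likeness. The highest r among 206 over 6 hearts can be high without any relation. Without heart 3, r between miR-10a-5p and miR-10b-5p was 0.96, and the order of likeness was not recomputed there.

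The libraries held 3966197 to 6007351 counts, and the tissue carried the markers of heart. The cardiac muscle miRNAs miR-133a-3p, miR-1a-3p, miR-208a-3p and miR-499-5p summed to between 94127 and 106439 CPM, and the skeletal muscle marker miR-206-3p had 1 read. The endothelial pair of miR-126a arms summed to between 83979 and 97256 CPM, and the smooth muscle pair to between 65603 and 113479 CPM. The fibroblast pair, miR-199a-5p and miR-214-3p, summed to between 461 and 820 CPM. That pair leaves out the arm of Mir199a with more reads, 94339 of 3p against 15555 of 5p. Its sum is therefore low for the choice of arm and cannot be set against the other lists. The erythroid pair summed to between 2176 and 5691 CPM, the leukocyte list to between 1970 and 2688 CPM, and the gut and kidney pair to between 2983 and 4294 CPM. In which cell types the miR-10 and miR-196 reads arose was not tested.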

How the data were processed

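The authors deposited, per the file headers, whole-number read counts per mature arm and locus, not normalized. The submitters' processing notes give GRCm38 as the build and name DESeq and edgeR, with no role or version. For the aligner, the counter and multiply mapped reads, the method is not given in the sources used here. Per the labels' protocols, adapters were ligated to both RNA ends with a TruSeq kit. Reads carry no molecular identifiers, so intervals and limits cover counting error only.

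The members, lists and tests were chosen with earlier results of these data known. CPM was computed on the total of all 1102 entries of a file. Entries took their names from GENCODE M21, and 33 antisense entries inside a hairpin on the opposite strand were given to that hairpin. The other 43 held at most 0.000756% of a library. Loci of 1 mature name were summed, and miR-3107 was counted with miR-486, giving 971 mature miRNAs. The fits used edgeR 4.0.16, DESeq2 1.42.0 and scipy 1.17.1, and folds RNAfold 2.7.2. Fits were tested on simulated counts. Named miRNAs are the members, other hairpins of the Hox clusters, miR-99 and miR-100, the neighbours in level and arm ratio, and the 5 most like each miR-10 5p arm. The miRNAs named for heart 4 were chosen after their values were seen. p-values measure only the spread between these samples.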

Additional observations from a re-analysis of the deposited data

Results flagged for a closer look

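Of 16 sets of 6 values checked, 3 held a heart whose gap to the next exceeded Dixon's 95% critical value of 0.625 of the range. Chance alone flags about 5% of sets of normally distributed values. That rate does not hold for sets of single reads, and the 16 sets share counts, so 3 of 16 cannot be set against it. The log2 ratio of miR-10a-5p to miR-10b-5p was 0.63 in heart 3, against 0.21 to 0.33 in the others. In that heart miR-10b-5p was at its lowest, 14726 CPM, and miR-10a-5p, at 22734 CPM, was the third highest. miR-196a-5p stood at 0.252 CPM in heart 4, and miR-196b-3p at 0.210 CPM in heart 1. Each of these last values is 1 read beside 5 hearts without any, so its gap is the whole range by construction.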

How the results depend on the processing

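No result that has a direction reversed, and 182 of 220 recomputed values were rated unchanged. For ratios and tests this meant the same direction and side of the threshold. For levels it meant a move smaller than the spread, and for counts of called members a value within a preset fold of the main count. Levels, counts and the p-values of spread have no direction to reverse, so the tally is not a measure of robustness. The calls of Mir10a and Mir10b held with DESeq2, without the library block, without a minimum count, with loci apart and with hearts left out, with log2 ratios of 11.08 to 11.27 for Mir10a and 12.59 to 12.88 for Mir10b. The count of hairpins with more 5p ran from 100 to 116 and of those with more 3p from 85 to 104.

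With 1 heart left out, the log2 ratio of miR-10a-5p to miR-10b-5p ran from 0.25 to 0.34, that of the 3p arms from 1.76 to 1.88, and the difference in arm bias from -1.56 to -1.44, each with exact p = 0.0625, the smallest 5 hearts allow. Without hearts 4 and 5, an alternative chosen after seeing the data, these were 0.36, 1.93 and -1.58 (exact p = 0.125, the smallest 4 hearts allow). Heart 4 holds most reads of miR-216a-5p and miR-124-3p, and heart 5 has miR-100-5p at 1347 CPM, against 786 to 908 CPM in the others. The r of miR-10a-5p with miR-10b-5p ran from 0.46 to 0.96 with 1 heart left out, and only the value without heart 3, 0.96, passed 0.05. On sense entries alone as library total, miR-10a-5p stood at 25321 CPM and miR-10b-5p at 20432 CPM, since antisense entries left the total. No paired analysis was possible because there is no second group of samples to pair by number. Comparisons between miRNAs were made within hearts, and the arm fit had the library as a block. Depth limits miR-196 and the 3p arms, with 3 counts at 0.499 to 0.756 CPM per library.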
